A study of Mus musculus with 3 samples.

Results

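The 33 genes described here make fatty acids, phospholipids, and cholesterol, or regulate or carry their products. They were taken by symbol, and the rule did not use their values, but the list was drawn up with earlier results of these data known. All 33 are among the 28692 genes listed in the count files. By role they were divided into 13 sterol genes (*Hmgcs1*, *Mvk*, *Mvd*, *Idi1*, *Fdps*, *Fdft1*, *Sqle*, *Lss*, *Cyp51*, *Msmo1*, *Nsdhl*, *Sc5d*, and *Dhcr7*), 3 regulators (*Srebf1*, *Srebf2*, and *Insig1*), 11 fatty acid genes (*Acly*, *Acaca*, *Fasn*, *Me1*, *Scd1*, *Scd2*, *Elovl1*, *Elovl5*, *Elovl6*, *Fads1*, and *Fads2*), 5 phospholipid genes (*Gpam*, *Agpat2*, *Lpcat1*, *Pcyt1a*, and *Chka*), and the fatty acid–binding protein gene *Fabp5*. Their UMIs (unique molecular identifiers, each counting 1 captured mRNA molecule) were followed across the cell types of the mouse lung at P14. The scRNA-Seq libraries came from the whole lungs of 3 WT C57BL/6 mice, numbers 2, 3, and 4, kept in room air from postnatal day 1 to 14. The mice form 1 condition, so every comparison below is between cell types within these lungs, with the mouse as the replicate.

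Pulmonary surfactant is mostly phospholipid, with disaturated phosphatidylcholine as its main part and cholesterol as a smaller part. AT2 cells, the cuboidal cells of the alveolus, make it, store it in lamellar bodies, and secrete it, and alveolar macrophages take up and degrade much of what is secreted. New fatty acids are built from citrate-derived acetyl-CoA, then elongated, desaturated, and joined to glycerol, while the sterol pathway starts from the same acetyl-CoA and runs through mevalonate and squalene. SREBP transcription factors, encoded by *Srebf1* and *Srebf2*, switch on genes of both pathways when sterols are low, and INSIG1 holds them back in the endoplasmic reticulum.

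Of the 9644 cells deposited, 7642 passed the filters and 6570 of these lay in clusters that could be named from marker genes. The libraries held 22476491 to 25192427 UMIs, with a median of 4853 to 7119 UMIs per cell kept. Names carry the ending "-like", since they were rebuilt from markers: 1069 cells were AT2-like (*Slc34a2*, *Sftpc*, and *Lamp3* among the leading genes), 166 AT1-like, 210 *Col13a1* fibroblast–like, 803 myofibroblast-like, 72 alveolar macrophage–like (14, 34, and 24 cells in mice 2, 3, and 4), and 115 interstitial macrophage–like, and 17 types entered the tests. The 27 Schwann cell–like cells were too few to enter, so orders of types below hold among these 17. Levels are in CPM, the usual counts unit in which the UMIs of each type and mouse are scaled to 1 common total, given as mean ± SD over 3 mice unless per-mouse values are listed in the order 2, 3, 4. The counts come from 3′ ends and were not divided by gene length, and genes can differ in how well they are captured. Unlike the tests, CPM levels and the orders of types drawn from them carry no TMM scaling, which adjusts the totals between sums. *Sftpc*, the surfactant protein C gene that marks AT2 cells, reached 23.2%, 38.0%, and 35.6% of its AT2-like level in AT1-like cells, 5.04% in the *Col13a1* fibroblast–like cells of mouse 3, 4.62% in the club-like and 4.14% in the *Col14a1* fibroblast–like cells of mouse 2, and 4.07% in the pericyte-like and 3.94% in the dendritic cell–like cells of mouse 4, and was at or below 1.49% in the other sums of the types tested. For the AT1-like and *Col13a1* fibroblast–like types, the main results were also computed without the cells that had over 1% of their UMIs from *Sftpc*.

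Promoters are shown first, since many genes of these pathways are known targets of shared transcription factors. In the RefSeq promoter table (GRCm38.p6, from 250 bases before to 50 after each start), 26 of the 33 members had an entry. The promoters of *Fdft1*, *Scd2*, *Fdps*, *Fabp5*, *Sqle*, *Scd1*, and *Fads1* were not analyzed here. Each promoter was searched on both strands for 4 sets of letters, namely a sterol regulatory element (TCACNCCAC), the core CCAAT bound by NF-Y, the E-box CACGTG, and the GC box GGGCGG bound by Sp1. CCAAT was found at 20 of the 26 members (76.9%) and at 41.1% of the 27025 genes of the table, and GGGCGG at 22 members (84.6%) and at 38.2% of genes. All 10 sterol genes with a promoter held both, as did *Srebf1*, *Srebf2*, and *Insig1*. TCACNCCAC was found at *Hmgcs1* and *Pcyt1a* alone (7.69% of members and 1.44% of genes), and CACGTG at 4 members (15.4%) against 8.09% of genes. *Elovl6* and *Acaca* held none of the 4. The 150 bases just before the start of 6 members are printed below from RefSeq, each 5′ to 3′ on the gene's strand, with every match to 1 of the 4 sets in capitals.

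*Hmgcs1*, which makes the precursor of mevalonate, lies on the + strand with the window chr13:119690201-119690350, and *Mvk*, mevalonate kinase, on the + strand with chr5:114444119-114444268. *Idi1*, the isomerase of the isoprenoid building blocks, lies on the + strand with chr13:8885456-8885605. *Fasn*, fatty acid synthase, lies on the - strand with chr11:120824548-120824697. *Pcyt1a*, the rate-limiting enzyme of phosphatidylcholine synthesis, and *Lpcat1*, which forms disaturated phosphatidylcholine from the lyso form, lie on the + strand with chr16:32430771-32430920 and chr13:73467081-73467230.
Hmgcs1: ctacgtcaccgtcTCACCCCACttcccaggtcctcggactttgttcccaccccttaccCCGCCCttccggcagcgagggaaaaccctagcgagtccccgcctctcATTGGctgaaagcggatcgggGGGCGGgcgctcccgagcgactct
Mvk: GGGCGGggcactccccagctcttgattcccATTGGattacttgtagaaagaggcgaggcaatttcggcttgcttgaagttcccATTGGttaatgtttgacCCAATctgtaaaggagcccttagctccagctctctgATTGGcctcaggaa
Idi1: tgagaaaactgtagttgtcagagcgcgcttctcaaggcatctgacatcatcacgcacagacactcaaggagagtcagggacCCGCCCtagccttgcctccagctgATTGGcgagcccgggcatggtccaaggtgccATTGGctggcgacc
Fasn: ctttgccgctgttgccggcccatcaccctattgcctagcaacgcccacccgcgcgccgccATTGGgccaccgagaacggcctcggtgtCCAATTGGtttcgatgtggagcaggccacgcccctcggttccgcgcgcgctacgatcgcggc
Pcyt1a: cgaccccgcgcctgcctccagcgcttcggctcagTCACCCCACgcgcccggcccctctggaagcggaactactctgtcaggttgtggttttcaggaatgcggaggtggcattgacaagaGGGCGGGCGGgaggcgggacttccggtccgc
Lpcat1: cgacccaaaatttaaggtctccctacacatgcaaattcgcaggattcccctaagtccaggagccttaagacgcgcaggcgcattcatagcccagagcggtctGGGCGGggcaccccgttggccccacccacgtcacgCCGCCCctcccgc
The *Hmgcs1* window holds TCACCCCAC 137 bases before the start, followed by GC boxes and a CCAAT on the opposite strand 45 bases before it. The *Mvk* window holds CCAAT on either strand 4 times, at 14, 50, 67, and 120 bases before the start, and *Idi1* holds it at 14 and 45. In *Fasn* the pair at 59 and 62 bases before the start overlap as CCAATTGG. *Pcyt1a* holds TCACCCCAC 116 bases before the start and no CCAAT, and *Lpcat1* holds only GC boxes. The same *Pcyt1a* site lies 215 bases before another start listed for that gene. All distances are to RefSeq starts, which can differ from those of the GENCODE annotation used for gene spans below. In that annotation *Idi1* starts at 8885501 and *Lpcat1* at 73467197, both inside the windows shown. These matches describe the letters of the windows, and binding was not measured.

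The 5 groups of genes did not share 1 pattern across cell types. The fatty acid genes summed to 5526, 5408, and 4870 CPM in AT2-like cells and to 3034, 3209, and 2996 CPM in AT1-like cells, the next type, 1.71 times lower. *Scd2* made up 1618 CPM of the AT1-like mean, beside 813 CPM in AT2-like cells, where *Scd1* made up 2687 CPM. The phospholipid genes summed to 2463, 2473, and 2560 CPM in AT2-like cells against 1084, 1126, and 1194 CPM in AT1-like cells, a ratio of 2.20. *Lpcat1* alone made up 2070 CPM of the AT2-like mean and 682 CPM of the AT1-like mean. The difference between these sums is thus mainly that of *Lpcat1*, and sums without it were not compared. In both groups of genes the values of the 3 mice did not overlap between the 2 types (exact two-sided permutation test, p = 0.1, the smallest p that 3 against 3 values allow). Both types came from the same 3 mice, and the permutation tests did not use this pairing. The sterol genes were ordered otherwise, with 500, 676, and 444 CPM in alveolar macrophage–like cells and 482, 490, and 467 CPM in AT2-like cells. These 2 types overlapped (ratio 1.13, exact permutation p = 0.7), as did alveolar macrophage–like and dendritic cell–like cells, whose sterol genes summed to 448 ± 122 CPM (ratio 1.21, exact permutation p = 0.5). *Fabp5* had 1501, 1018, and 1835 CPM in alveolar macrophage–like cells and 1353, 1081, and 1177 CPM in AT2-like cells, which overlapped as well (ratio 1.21, exact permutation p = 0.5). TMM factors, not applied here, were 0.758, 0.811, and 0.792 in AT2-like and 1.01, 0.959, and 1.01 in alveolar macrophage–like sums. In the test below that applies them, the sterol genes had a median log2 fold change of 0.44 toward AT2-like cells. The median of all genes tested was 0.53, and *Fabp5* had 0.09.

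**Figure D1:**
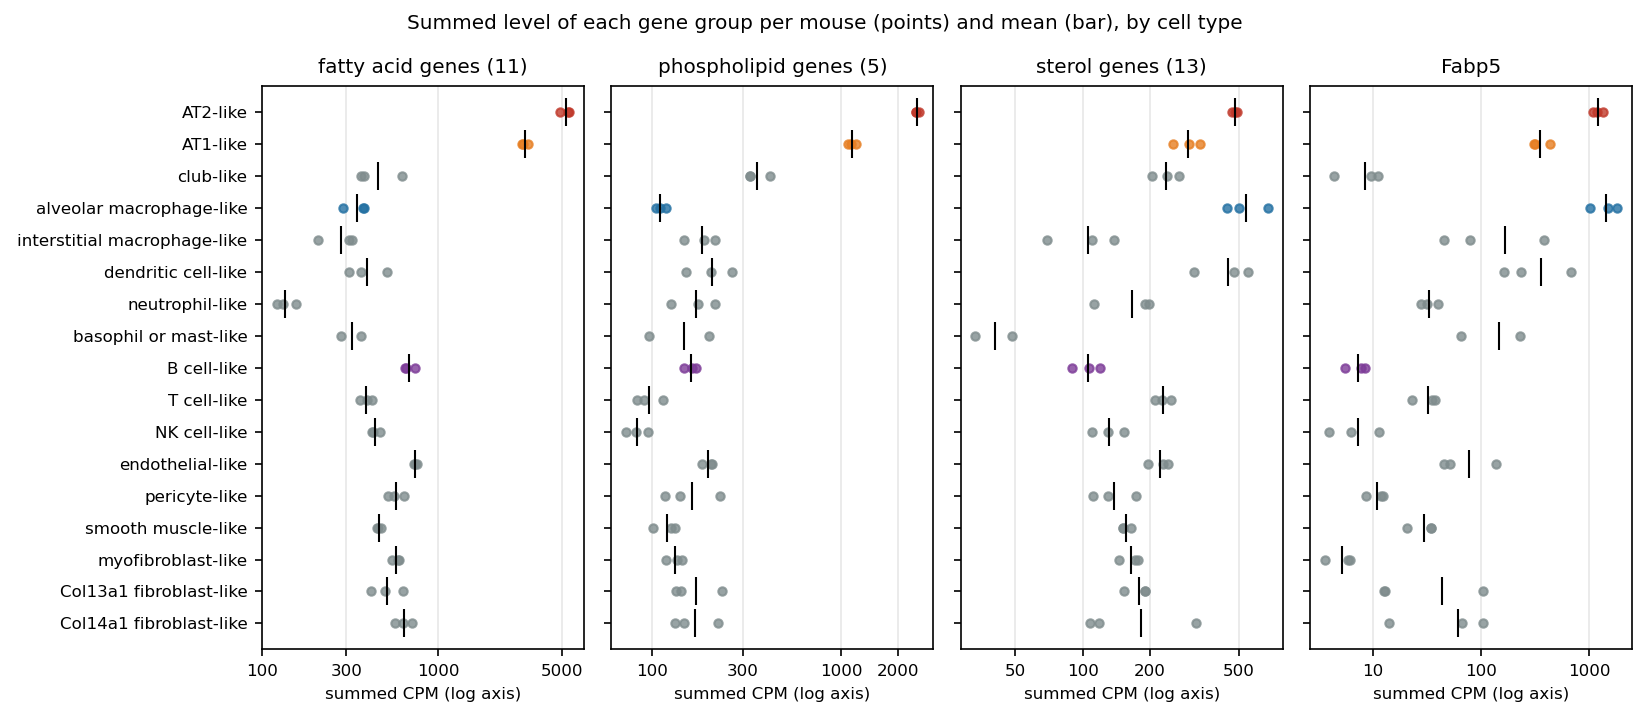
Summed CPM (log axis) of the 11 fatty acid, 5 phospholipid, and 13 sterol genes and of *Fabp5* in 17 cell types, with 1 point per mouse and a bar at the mean. Fatty acid and phospholipid genes stood highest in AT2-like cells (5268 and 2499 CPM on average), while for sterol genes and *Fabp5* the alveolar macrophage–like and AT2-like points overlap. Of the AT2-like phospholipid mean, 2070 CPM were *Lpcat1*, and of the AT1-like fatty acid mean, 1618 CPM were *Scd2*.

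Counted gene by gene over the 17 types tested, AT2-like cells had the highest mean level for 14 of the 33 members, alveolar macrophage–like cells for 5, dendritic cell–like cells for 4, and AT1-like cells for 3. Neutrophil-like and smooth muscle–like cells each led for 2 members, and endothelial-like, club-like, and NK cell–like cells each for 1. The means of the 27 Schwann cell–like cells, left out of this count, were above the leading type for 12 members, among them *Hmgcs1* (447 ± 340 CPM) and *Elovl6* (145 ± 95.4 CPM). In 7 of the 14 members led by AT2-like cells the 3 mice lay above all values of the second type: *Srebf1*, *Acaca*, *Fasn*, *Me1*, *Scd1*, *Elovl1*, and *Lpcat1*. None of the 5 led by alveolar macrophage–like cells (*Mvk*, *Mvd*, *Msmo1*, *Dhcr7*, and *Fabp5*) stood apart from the second type in this way. How many of all genes each type leads, with or without overlap, was not counted, so these counts have no background share. They rest on CPM without TMM scaling. AT2-like cells held 26.6% of all UMIs of the cells kept, but 88.6% ± 4.31 of *Scd1*, 88.5% ± 1.34 of *Lpcat1*, 85.2% ± 2.32 of *Fasn*, and 82.4% ± 7.20 of *Fabp5* (SD, n = 3). At the other end were *Elovl5* with 25.4% ± 1.44 and *Elovl6* with 0.555% ± 0.544.

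**Figure D2:**
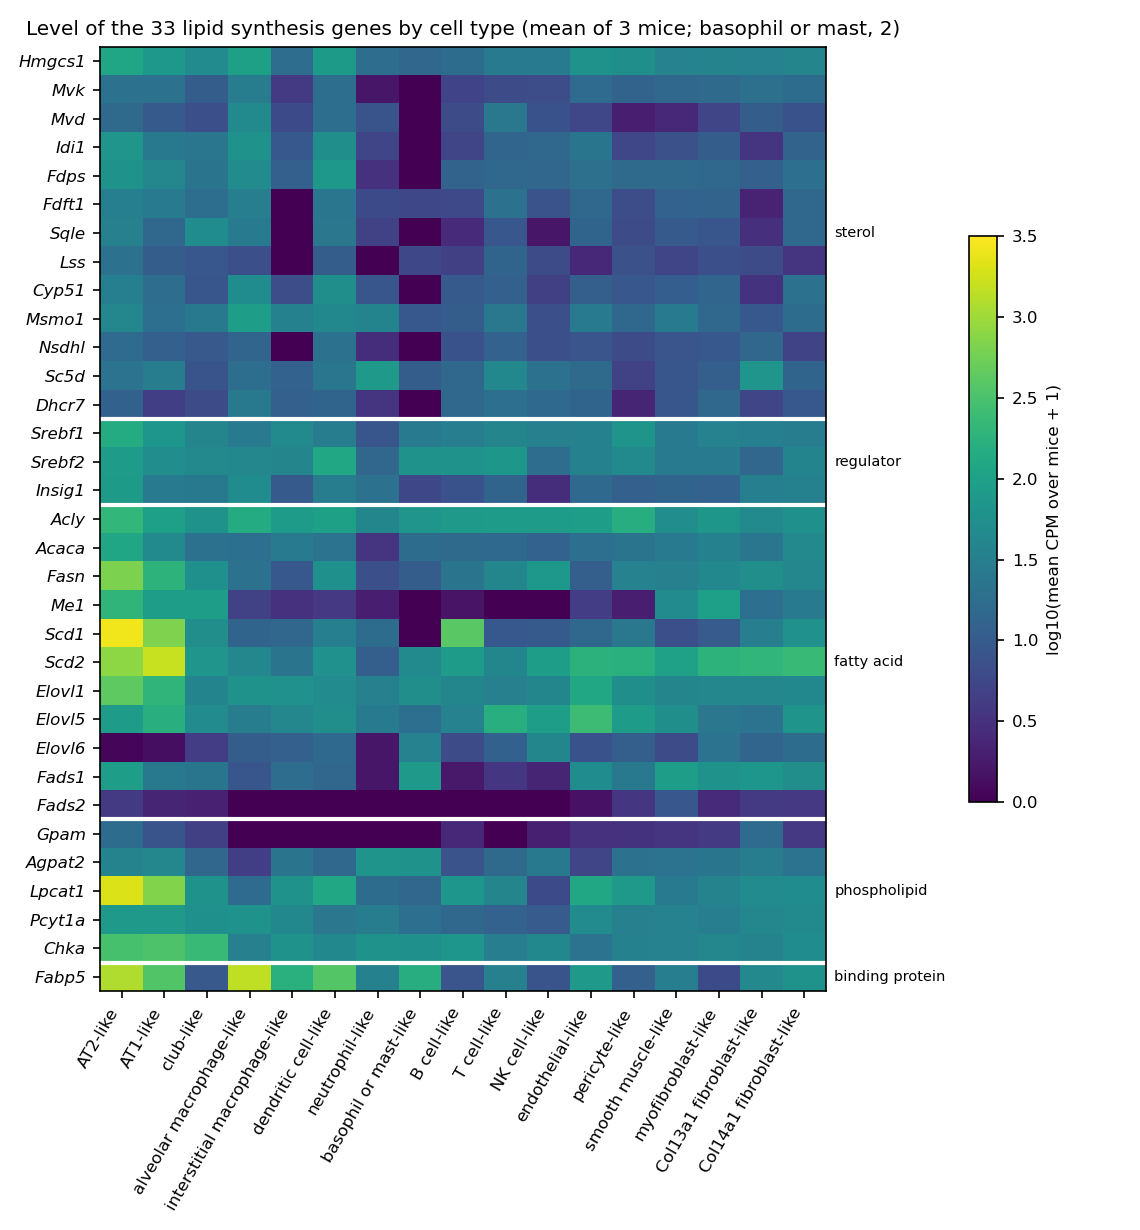
Mean level of the 33 genes (rows, in groups by role) in 17 cell types (columns), as log10 of mean CPM plus 1, over 3 mice (2 for basophil or mast–like cells). The brightest squares of *Scd1*, *Lpcat1*, and *Fasn* lie in the AT2-like column, *Fabp5* is brightest in the alveolar macrophage–like column (1451 CPM) and next in the AT2-like one (1204 CPM), *Scd1* is also bright in B cell–like cells, *Scd2* is brightest in AT1-like cells (1618 CPM), and *Elovl6* is darkest in AT2-like cells.

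To ask which members differ between types, UMIs summed per mouse and type were compared with edgeR's quasi-likelihood test over 12651 genes, with Benjamini-Hochberg adjustment. Of the 33 members, 31 were tested, and *Gpam* and *Fads2* (441 and 143 UMIs in all) fell below the filter on low counts. Against the mean of the 16 other types, 30 members were higher in AT2-like cells, where 39.0% of all genes tested were called higher, and 1 was lower, where 12.2% were. The median log2 fold change of the members was 2.50, beside 0.17 for all genes tested. By this test all 13 sterol genes, all 3 regulators, 9 of 10 fatty acid genes, all 4 phospholipid genes, and *Fabp5* were higher, and *Elovl6* was lower. This comparison has a built-in limit, since a gene at 0 UMIs in every sum of some other type cannot come out as lower: of 5462 such genes 2223 were called, all of them higher. Of the members, 12 are such genes, most of them at 0 in basophil or mast–like cells, and their fitted folds depend on the prior count and give no bound. The median of the other 19 members was 2.50 as well. Among these 19 the largest changes were those of *Lpcat1* (5.87 ± 0.13, SE), *Fabp5* (5.0 ± 0.21), and *Fasn* (4.81 ± 0.11). *Scd1* (7.47 ± 0.20) and *Me1* (6.03 ± 0.18) had larger fitted values, but both are at 0 in another type. The smallest among the 30 were *Sc5d* and *Elovl5* (1.06 ± 0.11). *Sc5d* was called higher (log2 fold change 0.59 ± 0.18, SE) although its plain mean was 20.4 CPM in AT2-like cells and 22.8 CPM over the other types, and its call was lost without mouse 2 (log2 fold change 0.51).

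Among the fatty acid genes, *Scd1* had the highest level. It encodes stearoyl-CoA desaturase 1, which puts the double bond into palmitate and stearate, and lies at chr19:44394455-44407879 on the - strand (GRCm38, GENCODE annotation). AT2-like cells had 2937, 2757, and 2368 CPM, AT1-like cells 553, 840, and 626, and B cell–like cells 384, 446, and 387, while the other 14 types tested had means of 0 to 58.4 CPM. The lowest AT2-like mouse was thus above the highest AT1-like mouse, and *Scd1* alone made 27.5% of the member UMIs of AT2-like cells. After thinning to 1000 UMIs, with cells below 1000 UMIs left out, 79.5% of AT2-like cells still held an *Scd1* UMI, beside 0.898% of myofibroblast-like cells. Against *Col13a1* fibroblast–like cells its log2 fold change was 6.69 ± 0.47 and against alveolar macrophage–like cells 8.06 ± 0.66, the largest of any member in both comparisons (edgeR's quasi-likelihood test, Benjamini-Hochberg adjusted p = 8e-17 and 2.6e-14).

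*Fasn*, which builds palmitate, followed the same order with 668, 675, and 612 CPM in AT2-like cells and 147, 210, and 182 CPM in AT1-like cells. *Acly*, which makes cytosolic acetyl-CoA from citrate, had 208 ± 5.46 CPM in AT2-like cells, and *Acaca*, which makes malonyl-CoA, had 113 ± 3.23 CPM. *Me1*, malic enzyme 1, a source of NADPH, had 177, 214, and 199 CPM in AT2-like cells, and its second type was the myofibroblast-like one with 82.1, 102, and 95.8 CPM, which did not overlap. *Elovl1*, an elongase of very long saturated chains, had 424 ± 28.1 CPM in AT2-like and 192 ± 46.6 CPM in AT1-like cells. Each of these 5 genes was higher in AT2-like cells than in AT1-like, *Col13a1* fibroblast–like, and alveolar macrophage–like cells. *Fads1*, a desaturase of polyunsaturated fatty acids, had 93.2, 83.5, and 94.3 CPM in smooth muscle–like cells and 86.0, 89.3, and 84.2 CPM in AT2-like cells, which overlapped. *Fads2*, its partner desaturase, had at most 7.91 CPM in any type, in smooth muscle–like cells.

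*Scd2* went the other way. It is a paralog of *Scd1* with the same reaction and lies on the same chromosome at chr19:44293674-44306864 on the + strand (GRCm38). Whether reads of the 2 paralogs were mixed was not tested. AT1-like cells had 1750, 1506, and 1599 CPM and AT2-like cells 792, 868, and 780 CPM, so all 3 AT1-like values were above all AT2-like values. *Elovl5*, an elongase of polyunsaturated fatty acids, was led by endothelial-like cells with 252, 258, and 249 CPM, ahead of AT1-like cells with 190, 126, and 167 CPM. T cell–like cells came next with a mean of 159 CPM, and AT2-like cells were at rank 5 of the 17 types with 86.0 ± 2.87 CPM. Against AT1-like cells, 23 members were higher in AT2-like cells (20.2% of all genes were) and 2 were lower (14.4% of all genes), with a median log2 fold change of 1.38 beside 0.17 for all genes. The 2 lower ones were *Scd2* (log2 fold change -0.67 ± 0.17, adjusted p = 0.002) and *Elovl5* (-0.61 ± 0.14, adjusted p = 0.00039, edgeR's quasi-likelihood test), and the call of *Elovl5* was lost without mouse 2. The largest difference was that of *Scd1* (2.34 ± 0.36), followed by *Fasn* (2.20 ± 0.19) and *Fads1* (2.10 ± 0.20). The smallest among those called higher were *Fdft1* (0.67 ± 0.25), *Nsdhl* (0.91 ± 0.37), and *Fdps* (0.96 ± 0.21), and the calls of *Fdft1* and *Nsdhl* were lost in fits without 1 mouse, as were those of *Mvd* and *Lss*.

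The AT1-like levels of several members moved with *Sftpc*. In all, 43 of the 166 AT1-like cells (14 of 53, 7 of 33, and 22 of 80) had over 1% of their UMIs from *Sftpc*, and 38 cells formed a separate AT1-like cluster with a median of 35883 UMIs. Without the 43 cells, AT1-like *Scd1* was 39.7 CPM, *Fasn* 25.9 CPM, *Fabp5* 22.9 CPM, and *Lpcat1* 177 CPM. The log2 fold changes of AT2-like against AT1-like cells were then 7.0 for *Scd1*, 5.27 for *Fasn*, 6.66 for *Fabp5*, and 4.00 for *Lpcat1*. *Scd2* and *Elovl5* moved in the other direction, to 1970 ± 187 and 226 ± 28.4 CPM in AT1-like cells, with log2 fold changes of -0.83 and -0.97. *Elovl1* was 74.3 ± 37.2 CPM (2.79), *Acly* 35.7 ± 18.0 CPM (2.82), *Acaca* 20.3 ± 9.72 CPM (3.11), and *Me1* 41.9 ± 16.03 CPM (2.78), with the log2 fold change in brackets. *Chka* stayed at 352 ± 15.7 CPM, beside 328 ± 15.9 CPM with all cells. As groups, the fatty acid genes then summed to 2435 ± 169 CPM and the phospholipid genes to 667 ± 23.5 CPM in AT1-like cells, which puts AT2-like cells 2.16 and 3.75 times above them. These ratios lean on single genes. *Scd2* made 1970 of the 2435 CPM in AT1-like cells, although it was lower in AT2-like cells. *Lpcat1* made 177 of the 667 CPM, beside 2070 CPM in AT2-like cells. Ratios without these 2 genes were not computed. Of the members 22 were then higher and 2 lower in AT2-like cells, and the share of all genes called in that fit is not given here. What the 43 cells are was not tested.

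*Elovl6*, which elongates palmitate to stearate, was nearly absent from the AT2-like cells. AT2-like cells held 2, 0, and 1 of its UMIs in mice 2, 3, and 4 (0.299, 0, and 0.153 CPM), out of 574 UMIs in all cells kept. NK cell–like cells had 31.5, 34.4, and 51.1 CPM, myofibroblast-like cells 26.4, 15.3, and 20.3, and *Col13a1* fibroblast–like cells 14.6, 10.8, and 12.7. Every mouse of these types was above every AT2-like value. The level was 73.8 times higher in *Col13a1* fibroblast–like than in AT2-like cells (95% interval 22.8 to 380, from counting error only) and 62.3 times higher in alveolar macrophage–like cells (12.1 to 401, from 5 and 3 UMIs). edgeR's quasi-likelihood test called it lower in AT2-like cells than in *Col13a1* fibroblast–like cells (adjusted p = 2.8e-09) and alveolar macrophage–like cells (adjusted p = 0.00046), and both calls held without each mouse. AT1-like cells held 1 UMI, and a difference between AT1-like and AT2-like cells was not detectable at this depth (ratio 2.16, counting interval 0.0411 to 26.9). The call against the mean of all other types (log2 fold change -4.65 ± 0.66, adjusted p = 3.2e-08) was lost without mouse 2, where AT1-like cells reached 0 *Elovl6* UMIs, and without mouse 3, where neutrophil-like cells did.

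**Figure D3:**
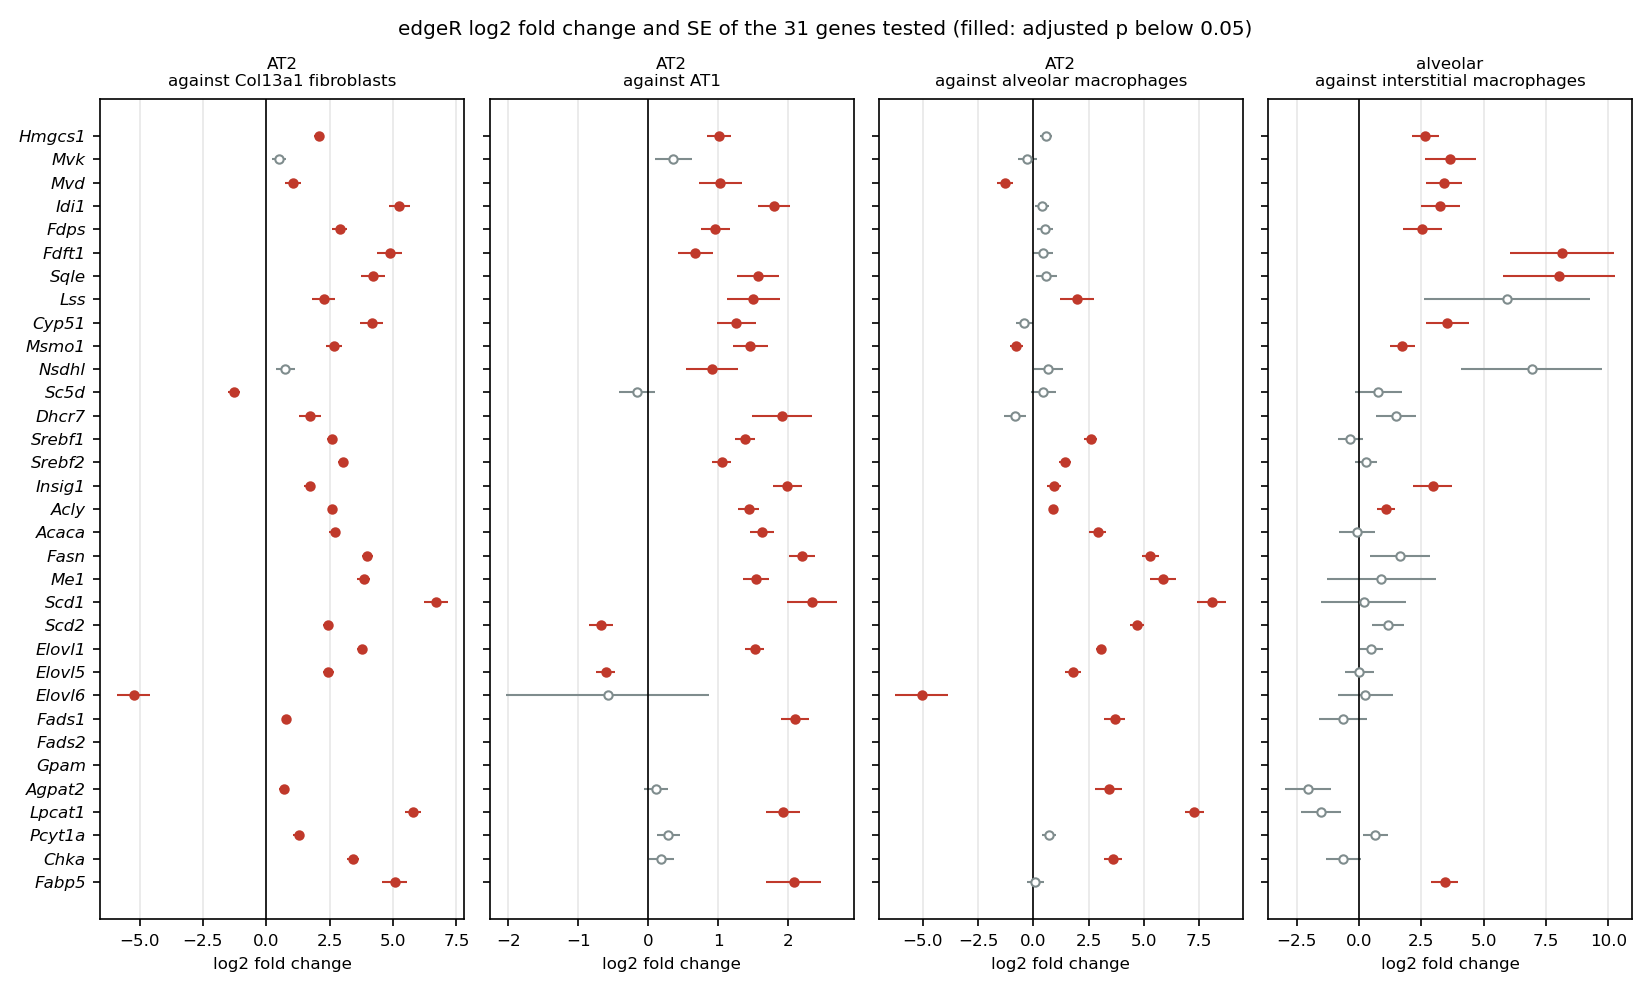
Log2 fold change and SE of the 31 genes tested by edgeR in 4 comparisons, with filled points where the adjusted p was below 0.05. In the first 3 panels positive values are higher in AT2-like cells, and *Elovl6* stands alone far to the left in 2 of them. In the last panel positive values are higher in alveolar macrophage–like cells, and *Fdft1* and *Sqle*, at 0 UMIs in interstitial macrophage–like cells, have folds that depend on the prior count.

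B cell–like cells were the third of the 17 types for *Scd1*, and the second once the 43 *Sftpc*-containing AT1-like cells were left out (39.7 CPM in AT1-like cells). The *Scd1* level of B cell–like cells was 13.1%, 16.2%, and 16.4% of that of AT2-like cells, while *Sftpc* was at 0.249%, 0.124%, and 0.286%. The AT2-like *Scd1* level scaled by the *Sftpc* ratio is 5.83 CPM, and 406 ± 34.7 CPM were measured over 398, 884, and 502 cells. Where this RNA came from was not tested. Both B cell–like clusters held *Scd1*, with 511, 554, and 481 CPM in the first and 277, 316, and 309 CPM in the second. At least 1 *Scd1* UMI was seen in 70.3% of B cell–like cells, against 5.23% of T cell–like cells. After thinning to 1000 UMIs, with cells below 1000 UMIs left out, the shares were 31.3% and 0.916%. T cell–like cells had 8.13 ± 2.36 CPM and NK cell–like cells 8.66 ± 7.51 CPM. Of the other 10 fatty acid genes, B cell–like cells had 81.2 ± 14.2 CPM of *Scd2*, 76.6 ± 5.64 of *Acly*, 39.5 ± 1.83 of *Elovl1*, 34.2 ± 5.66 of *Elovl5*, 20.9 ± 0.540 of *Fasn*, and 15.3 ± 2.42 of *Acaca*. *Elovl6* (5.23 ± 2.35 CPM), *Fads1* (0.735 ± 0.581), *Me1* (0.550 ± 0.735), and *Fads2* (0 UMIs) had the lowest levels.

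**Figure D4:**
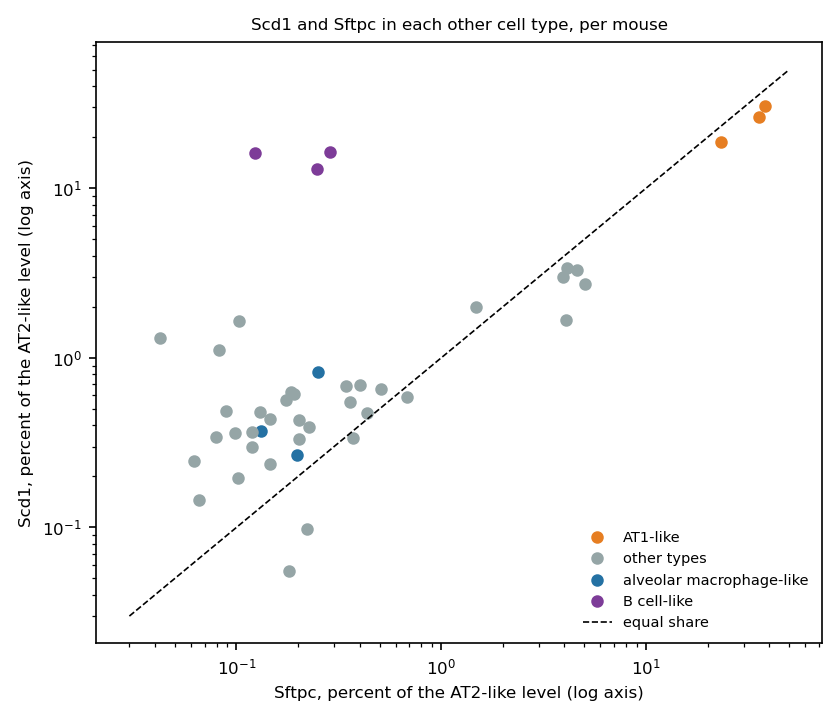
Level of *Scd1* against that of *Sftpc* in each type other than AT2-like, per mouse, as a percentage of the AT2-like level (both axes log). Of the sums, 44 are drawn and 3 with 0 *Scd1* UMIs are not; 32 lie above the dashed line of equal share, and the 3 B cell–like points lie farthest above it.

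Among the phospholipid genes, *Lpcat1* stood out with 2048, 2057, and 2106 CPM in AT2-like cells, 590, 714, and 743 CPM in AT1-like cells, and 118, 132, and 119 CPM in endothelial-like cells. It lies at chr13:73467197-73516422 on the + strand, made 21.3% of the member UMIs of AT2-like cells, and was higher there than in *Col13a1* fibroblast–like cells by a log2 fold change of 5.78 ± 0.31 and than in alveolar macrophage–like cells by 7.28 ± 0.44. *Chka*, choline kinase alpha, the first step of phosphatidylcholine synthesis from choline, had 344, 312, and 328 CPM in AT1-like cells, 291, 287, and 318 CPM in AT2-like cells, and 222, 224, and 226 CPM in club-like cells. *Pcyt1a*, the next step, had 104, 59.99, and 67.5 CPM in AT1-like and 71.3, 75.9, and 83.4 CPM in AT2-like cells. The AT1-like and AT2-like values of *Chka* and *Pcyt1a* overlapped, and edgeR's quasi-likelihood test called neither (log2 fold change 0.19 ± 0.18 and 0.29 ± 0.17, adjusted p = 0.46 and 0.19). Of the 4 phospholipid genes tested, only *Lpcat1* was higher in AT2-like than in AT1-like cells, whereas all 4 were higher than in *Col13a1* fibroblast–like cells. The glycerol acyltransferases were spread more widely. *Agpat2*, which acylates lysophosphatidic acid, was led by neutrophil-like cells with 52.5, 67.4, and 73.2 CPM, beside 36.0, 36.9, and 35.5 CPM in AT2-like cells. *Gpam*, the mitochondrial enzyme of the first acylation, had 16.5 ± 0.274 CPM in AT2-like cells and 15.7 ± 5.27 CPM in *Col13a1* fibroblast–like cells, and 0 UMIs in both macrophage-like types.

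Between AT2-like and alveolar macrophage–like cells, the groups of genes parted. Higher in AT2-like cells were 16 members (25.4% of all genes were) and lower were 3 (15.5% of all genes), with a median log2 fold change of 0.90 beside 0.53 for all genes. Of the 10 fatty acid genes tested 9 were higher and *Elovl6* was lower, 3 of the 4 phospholipid genes and all 3 regulators were higher, but of the 13 sterol genes only *Lss* was higher, *Mvd* and *Msmo1* were lower, and 10 were not called. *Mvd*, which makes isopentenyl pyrophosphate, had 23.5, 71.6, and 39.2 CPM in alveolar macrophage–like cells and 15.4 ± 1.18 CPM in AT2-like cells (log2 fold change -1.30 ± 0.36, adjusted p = 0.0027, edgeR's quasi-likelihood test). *Msmo1*, which removes methyl groups from lanosterol products, had 133, 87.0, and 52.2 CPM against 40.9 ± 0.295 CPM (-0.77 ± 0.30, adjusted p = 0.037). The call of *Mvd* was lost without mouse 3 and that of *Msmo1* without mouse 2 or 3, and *Lss*, which closes the sterol rings and had 3 UMIs in alveolar macrophage–like cells, lost its call without any 1 of the mice. Of the members higher in AT2-like cells, those that differed most were *Scd1*, *Lpcat1*, and *Me1* (5.85 ± 0.60). *Me1* had 2 UMIs in alveolar macrophage–like cells, a ratio of 46.3 with a counting interval of 12.8 to 383. *Hmgcs1* had 108, 119, and 120 CPM in AT2-like and 109, 118, and 65.3 CPM in alveolar macrophage–like cells and was not called (0.57 ± 0.25, adjusted p = 0.067), but it passed with the mouse as a block (0.58).

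Most of the members that differed between the 2 macrophage-like types were sterol genes. These genes summed to 69.0, 138, and 111 CPM in interstitial macrophage–like cells, 5.10 times below alveolar macrophage–like cells, with no overlap (exact two-sided permutation p = 0.1, the smallest possible). By edgeR's quasi-likelihood test 12 members were higher in alveolar macrophage–like cells, beside 6.97% of all genes, and none were lower, beside 7.36%. At an unadjusted p under 0.05 the counts were 13 and 1, and DESeq2 also called 12 and 0, with no share of all genes for either. The 12 were 9 sterol genes together with *Insig1*, *Acly*, and *Fabp5*, and the median log2 fold change was 3.40 for the sterol genes, 1.17 for all members, and 0.00 for all genes. With the 4 sterol genes at 0 UMIs in interstitial macrophage–like cells set to a floor of 3 UMIs, the medians were 1.86 for the sterol genes and 0.89 for all members.

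**Figure D5:**
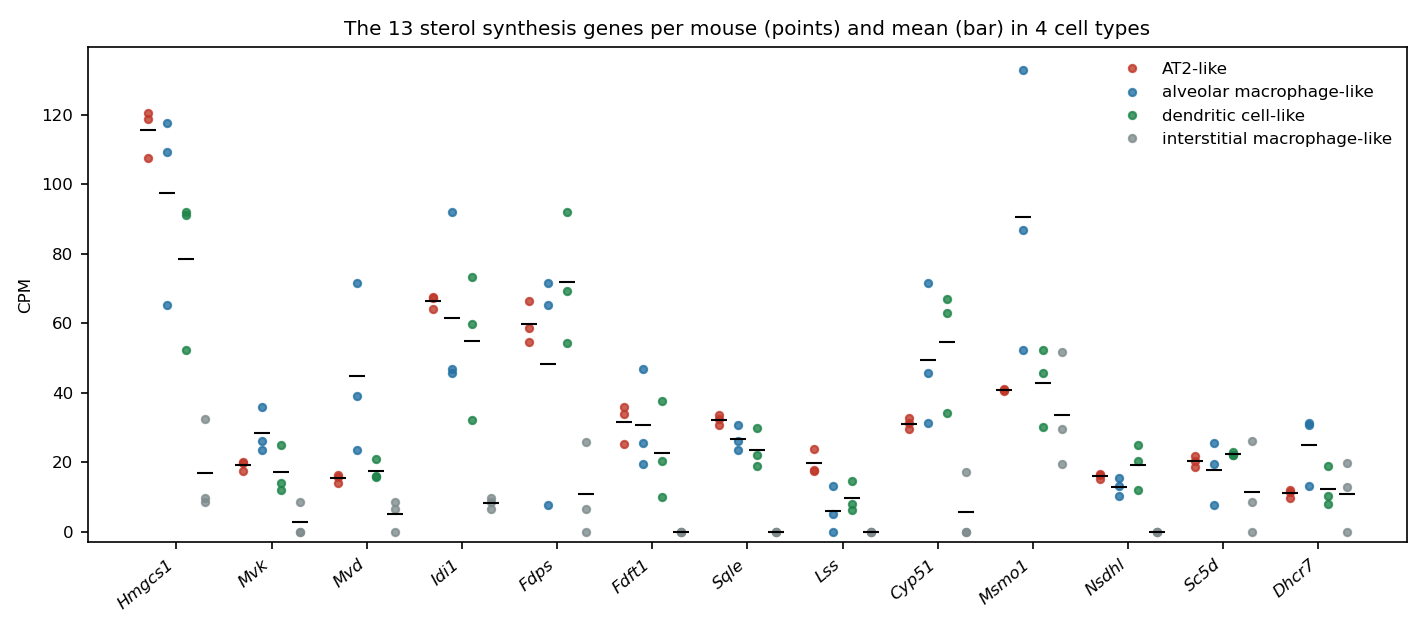
CPM of the 13 sterol genes in AT2-like, alveolar macrophage–like, dendritic cell–like, and interstitial macrophage–like cells, with 1 point per mouse and a bar at the mean. Interstitial macrophage–like points lie lowest for most genes and are at 0 in all 3 mice for *Fdft1*, *Sqle*, *Lss*, and *Nsdhl*.

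*Hmgcs1* had 109, 118, and 65.3 CPM in alveolar macrophage–like cells and 9.86, 8.64, and 32.5 CPM in interstitial macrophage–like cells (log2 fold change 2.66 ± 0.54, adjusted p = 0.00024, edgeR's quasi-likelihood test). *Cyp51*, lanosterol demethylase, had 31.3, 71.6, and 45.7 CPM against 0, 17.3, and 0 CPM (3.53 ± 0.86, adjusted p = 0.0026). These 2 genes and *Fabp5* (3.43 ± 0.54, adjusted p = 3.9e-06) were called in every fit without 1 mouse, and the other 9 lost their call in at least 1 of these fits. *Mvk* had 14 UMIs against 1 (3.66 ± 1.02, adjusted p = 0.0093), a ratio of 10.9 with a counting interval of 1.66 to 461. *Fdft1*, squalene synthase, and *Sqle*, squalene epoxidase, had 14 and 13 UMIs in alveolar macrophage–like cells and 0 in interstitial macrophage–like cells, which makes them at least 3.63-fold and 3.37-fold higher when 3 UMIs over the type are taken as the floor. The smallest differences called were those of *Acly* (1.08 ± 0.35), *Msmo1* (1.73 ± 0.51), and *Fdps* (2.54 ± 0.78), which makes farnesyl pyrophosphate and overlaps *Gm43738* on the same strand. *Lss*, *Nsdhl*, *Sc5d*, and *Dhcr7* were not called, whereas *Cyp51* and *Msmo1*, which also act after squalene, were. *Lss* and *Nsdhl* had 3 and 6 UMIs in alveolar macrophage–like cells and 0 in interstitial macrophage–like cells. These values rest on few UMIs, since the 2 types had 476454 and 370866 UMIs in all, and the median per cell was 4902 in alveolar and 1968 in interstitial macrophage–like cells. *Lpcat1* and *Agpat2* were on the other side, with 15.5 ± 9.13 and 3.41 ± 5.91 CPM in alveolar and 60.6 ± 27.1 and 21.0 ± 4.52 CPM in interstitial macrophage–like cells, and neither was called.

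Some sterol genes were led by other types. *Sc5d*, the sterol C5 desaturase near the end of the pathway, had 84.8, 91.7, and 56.3 CPM in neutrophil-like cells and 66.7, 74.4, and 53.6 CPM in *Col13a1* fibroblast–like cells, which overlapped, and 20.4 ± 1.63 CPM in AT2-like cells. *Sqle* had 44.6, 67.6, and 37.4 CPM in club-like cells (48 cells, 8 of them marked as doublets), all above the 32.3 ± 1.497 CPM of AT2-like cells. *Fdps* had 54.4, 69.2, and 92.0 CPM in dendritic cell–like cells and 66.4, 58.6, and 54.6 CPM in AT2-like cells. Among the 17 types tested, AT2-like cells led for *Hmgcs1*, *Idi1*, *Fdft1*, and *Lss*, each with a second type that overlapped. The SD of the sterol sum between mice was 11.9 CPM in the 1069 AT2-like cells and 121 CPM in the 72 alveolar macrophage–like cells.

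Of the regulators, *Srebf1* and *Insig1* were highest in AT2-like cells and *Srebf2* in dendritic cell–like cells. *Srebf1*, whose products act mainly on fatty acid genes, had 142, 139, and 143 CPM in AT2-like and 53.7, 80.0, and 73.6 CPM in AT1-like cells, which did not overlap. Without the *Sftpc*-containing cells, AT1-like *Srebf1* was 25.7, 31.5, and 40.4 CPM, and the 3 regulators summed to 79.2 ± 4.54 CPM beside 145 ± 13.5 CPM with all AT1-like cells. *Srebf2*, whose product acts mainly on sterol genes, had 109, 138, and 130 CPM in dendritic cell–like and 84.9, 84.0, and 84.5 CPM in AT2-like cells, which did not overlap either. *Insig1* had 83.0, 82.5, and 71.0 CPM in AT2-like and 23.5, 76.8, and 45.7 CPM in alveolar macrophage–like cells. The 3 regulators were higher in AT2-like cells than in AT1-like, *Col13a1* fibroblast–like, and alveolar macrophage–like cells, although the difference of *Insig1* from alveolar macrophage–like cells (log2 fold change 0.93 ± 0.32, adjusted p = 0.017, edgeR's quasi-likelihood test) was lost without mouse 2 or 4. Between the macrophage-like types, *Srebf1* and *Srebf2* were not called (-0.36 ± 0.50 and 0.27 ± 0.43), and *Insig1* was higher in the alveolar type with 25 UMIs against 3 (ratio 6.49, counting interval 1.98 to 33.6).

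*Fabp5*, a carrier of fatty acids in the cytosol, made 55.9% ± 10.9 of the member UMIs of alveolar macrophage–like cells and 12.3% ± 1.16 of those of AT2-like cells. Dendritic cell–like cells had 234, 689, and 165 CPM, interstitial macrophage–like cells 78.9, 380, and 45.6 CPM, and myofibroblast-like cells 5.19 ± 1.39 CPM. Mouse 3 was thus the highest in both the dendritic and the interstitial type but the lowest in the alveolar type. The difference between AT2-like and alveolar macrophage–like cells was 0.09 ± 0.39 on the log2 scale (adjusted p = 0.89, edgeR's quasi-likelihood test).

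All members together summed to 981 CPM in *Col13a1* fibroblast–like and 950 CPM in myofibroblast-like cells, beside 9755 CPM in AT2-like cells. Some other types lay below these fibroblast levels and some above. Against *Col13a1* fibroblast–like cells, 27 members were higher in AT2-like cells (26.0% of all genes were) and 2 were lower (23.6%), with a median log2 fold change of 2.61 beside 0.07. Among the members higher in AT2-like cells, *Idi1* differed most besides *Scd1* and *Lpcat1* (5.25 ± 0.41, 5 UMIs in *Col13a1* fibroblast–like cells). The smallest calls among them were *Agpat2* (0.70 ± 0.20), *Fads1* (0.79 ± 0.17), and *Mvd* (1.06 ± 0.32), of which *Agpat2* and *Mvd* were lost in fits without 1 mouse. The 2 lower members were *Elovl6* and *Sc5d* (-1.27 ± 0.23, adjusted p = 5.5e-06, edgeR's quasi-likelihood test), and *Mvk* and *Nsdhl* were not called. Without the 2 *Col13a1* fibroblast–like cells over 1% *Sftpc* UMIs the counts were 27 and 2 again, with no share of all genes for that fit. The log2 fold changes were then 9.33 ± 0.37 for *Scd1*, 7.07 ± 0.53 for *Fabp5*, and 6.72 ± 0.22 for *Lpcat1*, beside 6.69, 5.06, and 5.78 with all cells.

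Between *Col13a1* fibroblast–like and myofibroblast-like cells, 5 members were higher (14.3% of all genes) and 8 lower (15.7%), and the median of -0.06 lay near that of all genes, -0.08. The count of members higher thus lay near the share of all genes. Lower in *Col13a1* fibroblast–like cells were *Idi1*, *Fdft1*, *Sqle*, *Cyp51*, *Dhcr7*, *Srebf2*, *Acly*, and *Me1*. *Me1* had 17.9, 21.6, and 14.1 CPM against 82.1, 102, and 95.8 CPM (log2 fold change -2.29 ± 0.29, adjusted p = 1.4e-08, edgeR's quasi-likelihood test), *Cyp51* 3.26, 2.16, and 1.41 CPM against 17.6, 9.47, and 11.7 CPM (-2.45 ± 0.57), and *Fdft1* 0, 2.16, and 1.41 CPM against 11.7, 9.92, and 14.2 CPM (-3.04 ± 0.65). These 3 kept their call without each mouse, and the other 5 did not. Higher were *Sc5d* with 66.7, 74.4, and 53.6 CPM against 11.4, 9.02, and 11.4 CPM (2.64 ± 0.27, adjusted p = 1.7e-11), *Insig1* with 30.9, 34.5, and 29.6 CPM against 13.4, 10.4, and 10.8 CPM (1.5 ± 0.28, adjusted p = 3.2e-05), *Mvd* (1.13 ± 0.39), *Scd1* (1.90 ± 0.55), and *Fabp5* (3.24 ± 0.66). Of the sterol genes called, only *Sc5d* on the higher side and *Fdft1* and *Cyp51* on the lower side kept their call without each mouse. Mouse 3 stood apart, with *Scd1* at 75.5 CPM beside 1.63 and 15.5, and *Fabp5* at 105 CPM beside 13.02 and 12.7. Without mouse 3 the log2 fold change of *Scd1* was -0.17 and its call was lost, whereas *Fabp5* kept its call at 1.41. Without the 2 *Col13a1* fibroblast–like cells (in mice 3 and 4) with over 1% of *Sftpc* UMIs, *Scd1* was 1.63, 3.47, and 11.4 CPM with a log2 fold change of -0.68 (adjusted p = 0.43), and *Fabp5* had 1.28 (adjusted p = 0.30). The call of *Mvd* was lost without any 1 of the mice.

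Other genes of the same pathways, 70 in all, were counted by direction beside the members. Of these, 69 were in the files and 60 were tested. Against the mean of the other types, 36 of the 60 were higher and 7 (11.7%) lower in AT2-like cells, beside 39.0% and 12.2% of all genes tested, with a median log2 fold change of 0.69 beside 2.50 for the members. The 8 with the largest change were *Cds1* (6.09), *Abca3* (5.68), *Cebpa* (4.71), *Cd36* (4.46), *Elovl7* (4.26), *Fads3* (4.19), *Acsl4* (3.95), and *Hacd3* (3.64). Another of the types tested had a higher mean for *Cds1* (102 CPM in club-like against 94.5 in AT2-like cells), *Cebpa* (340 in basophil or mast–like against 327), *Cd36*, and *Fads3*. *Elovl7* had 21.6 CPM in AT2-like cells and 43.8 CPM in the 10 Schwann cell–like cells of mouse 3, a type not tested. *Abca3*, which pumps phospholipid into lamellar bodies, had 1380 ± 20.7 CPM in AT2-like cells and 462 CPM in AT1-like cells, the next highest. AT1-like values of the partner genes include the *Sftpc*-containing AT1-like cells, and levels without these cells are not given here. *Cd36*, a fatty acid transporter, had 619 ± 55.9 CPM in AT2-like cells and 1527 CPM in endothelial-like cells. *Fads3*, a desaturase relative of *Fads1*, had 55.6 ± 1.93 CPM in AT2-like and 257 CPM in AT1-like cells. Against *Col13a1* fibroblast–like cells 25 of the 60 (41.7%) were higher and 9 lower, beside 26.0% and 23.6% of all genes tested. Against AT1-like cells the shares were 41.7% and 16.7%, beside 20.2% and 14.4% of all genes. Against alveolar macrophage–like cells 22 (36.7%) were higher and 9 lower, beside 25.4% and 15.5%. Between the 2 macrophage-like types 10.0% were higher and 8.33% lower in the alveolar type, near the 6.97% and 7.36% of all genes. In *Col13a1* fibroblast–like against myofibroblast-like cells 26.7% were higher and 13.3% lower, beside 14.3% and 15.7% of all genes.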

How the data were processed

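Whole lungs of 3 WT C57BL/6 mice (P14) were profiled by droplet scRNA-Seq, and each mouse is 1 library. The deposited matrices hold UMI counts per gene and cell, which the authors made with Cell Ranger 3.0.2 against mm10, and no normalization had been applied. The annotation release is not given in the sources used here. Genes were matched by symbol, and 58 symbols are listed more than once. No column of another series was present.

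The cell filter asked for 200 or more genes and allowed mitochondrial UMIs up to 20%. Cells were clustered with Seurat 5.3.0 (SCTransform 0.4.2, 30 principal components, resolution 0.8) without the members and their pathway partners among the variable genes. A cluster was named where the mean log2 fold of its markers was at least 1 and at least 3 markers were detected. It was left unnamed where another type had more markers among its leading genes. The same held where its UMIs were low and none of its own markers led. Of 30 clusters, 6 (956 cells) stayed unnamed, and 1 of dividing cells (116 cells) was kept apart from the named types. Doublets were scored with scanpy 1.11.5 and kept. The automatic cutoff marked 0.503%, 0.384%, and 0.716% of cells, so the highest scores were marked instead at 0.8% per 1000 cells (156 cells) and removed in an alternative. Library pairs shared 2 to 5 barcodes.

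UMIs were summed per mouse and type (at least 10 cells, 50 sums, 17 types) and tested with edgeR 4.0.16 (R 4.3.3; TMM scaling, filterByExpr, quasi-likelihood F test, all types in 1 fit, Benjamini-Hochberg adjustment over 12651 genes, threshold 0.05). Sums over gene groups were compared by exact permutation tests of the per-mouse values, without pairing by mouse (scipy 1.17.1). Each SE of an edgeR fold is the absolute log2 fold change divided by the square root of the F statistic. Counting intervals and floors (3 UMIs) cover counting error only. The same-numbered sums come from the same mouse, and their deviations correlated weakly (-0.0605 to 0.256, median 0.0366 over 360 pairs, beside a median of -0.0194 for different mice). On simulated counts for 11003 genes with 200 changed, the fit recovered 100%, 99%, 100%, and 79% in the comparisons of AT2-like cells with the mean of the other types, *Col13a1* fibroblast–like, AT1-like, and alveolar macrophage–like cells. All changed genes had the same fold, larger than many differences called here, and genes with low counts were not among them. The other genes had equal means in all types. The spread between sums was set to 1 fixed value for all genes and types and was not estimated from these data. Recovery of small differences, or in the comparisons within macrophage-like or fibroblast-like types, was not simulated.

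All 33 members were accounted for. In each comparison the 3 with the largest and the 3 with the smallest log2 fold change past the test, and those that went against their group, were given in full. Of the partner genes, at most 8 that passed against the mean of the other types were named. The members and all gene lists were chosen with earlier results of these data known. The alternatives were DESeq2 1.42.0, no TMM, no filter on low counts, a replicate block, leaving out each mouse, removing doublets, clustering with the members, resolutions of 0.4 and 1.2, a stricter cell filter (500 genes, 10% mitochondrial), and motifs on the gene's strand alone. Leaving out cells with over 1% *Sftpc* UMIs, and leaving surfactant transcripts out of the totals, were added after seeing the data.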

Additional observations from a re-analysis of the deposited data

How the results depend on the processing

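Against the mean of the other types, the count of members lower in AT2-like cells (1, *Elovl6*) was 0 with doublets removed, at resolution 1.2, with the stricter cell filter, and without the cells over 1% *Sftpc* UMIs in other types (the *Sftpc*-rich cells). In these settings another type reached 0 *Elovl6* UMIs. The count lower than in alveolar macrophage–like cells was 1 at resolution 0.4, where that cluster also took in dendritic cells, and *Msmo1* then reversed to 0.06. The count higher in *Col13a1* fibroblast–like than in myofibroblast-like cells was 3 with doublets removed and also without the *Sftpc*-rich cells. *Scd1* reversed there to -0.73 and -0.68, and without 1 mouse at a time it ranged from -0.17 (without mouse 3) to 2.42. With doublets removed, the AT2-like level was 310.6 CPM for the regulators and 2561 CPM for the phospholipid genes. With the members among the variable genes, AT2-like cells held 77.62% of phospholipid UMIs. On the gene's strand alone CCAAT was found at 42.31% of members and 23.7% of all genes.

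Without 1 mouse at a time, members higher and lower numbered 29 to 31 and 0 to 1 (AT2-like against the mean), 26 to 26 and 2 to 2 (against *Col13a1* fibroblast–like), 21 to 22 and 1 to 2 (against AT1-like), 14 to 16 and 1 to 3 (against alveolar macrophage–like), 7 to 8 and 0 to 1 (between the macrophage-like types), and 3 to 6 and 3 to 7 (between the fibroblast-like types). With the mouse as a replicate block, 17 members rather than 16 were higher in AT2-like than in alveolar macrophage–like cells, by *Hmgcs1*, and no other count changed. Without TMM the median of all genes moved by -0.36, -0.37, -0.27, -0.33, -0.15, and -0.05 in the 6 comparisons, and the members called higher were 29, 24, 20, 14, 10, and 5. The cause of the other changes was not tested. Shares of all genes called are given for the main fit only. Under resolution 0.4 and the stricter cell filter the macrophage-like types could not be compared, and with the filter neither could AT2-like and alveolar macrophage–like cells. Depth limits the macrophage-like results, with 476454 and 370866 UMIs in all.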

Other observations

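Schwann cell–like cells (27 cells, 8 to 10 per mouse) were too few for the tests. Their sterol genes summed to 1088, 1876, and 640.6 CPM and their fatty acid genes to 2989, 2595, and 1666 CPM, with *Scd2* at 1949, 1648, and 860 CPM and *Hmgcs1* at 443, 789, and 110 CPM. *Elovl6* was 215, 184, and 36.6 CPM in the same cells.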
